A study of Mus musculus with 6 samples.

Results

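The proteasome genes are the subunits, activators and inhibitor of the protease complex that degrades ubiquitin-marked proteins. They were taken as every gene on the array whose symbol is Psma, Psmb, Psmc, Psmd, Psme or Psmf followed only by a number, each read by its brightest probe set naming that gene alone. This gave 43 of the 22180 genes measured, 5 of them the interferon-inducible immunoproteasome genes Psmb8, Psmb9, Psmb10, Psme1 and Psme2, and 38 the rest. Of 44 such symbols on the array, 1 was left out, Psma4, since its probe sets also name another gene. B16-F1 cells, a pigmented mouse melanoma line, were grown as flank tumours for 20 days in Stat2 KO hosts (3 tumours) or in WT hosts (3 tumours), all hosts on a C57BL6 background. The knockout is stated for the host, and nothing in the labels describes a change in the implanted cells. Each tumour is a mixture of melanoma cells and host cells, and its RNA was read on 1 array. The sources used here give neither the deleted part of Stat2 nor whether each tumour came from its own mouse, so the spread behind every p-value is that of these 6 samples and may in part be technical.

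The proteasome is a barrel of alpha and beta rings capped by a regulatory particle, whose base ATPases unfold the substrate. Of the beta subunits, Psmb5, Psmb6 and Psmb7 carry the active sites of the constitutive form. Interferon, above all interferon gamma, induces Psmb8, Psmb9 and Psmb10, which replace Psmb5, Psmb6 and Psmb7 in newly built particles and favour peptides that MHC class I molecules can bind. Psme1 and Psme2 together form the inducible cap that speeds release of peptides, and cells of the immune system make the inducible subunits without stimulation. STAT2 is a subunit of the transcription factor complex through which type I interferon acts on its target genes.

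All values are log2 expression values. The 6 arrays had medians over genes between 6.27 and 6.44 and correlated pairwise at 0.964 to 0.986 across genes. Stat2 itself read 6.45, 6.48 and 6.33 in Stat2 KO hosts, against 6.79, 6.70 and 6.70 in WT hosts in replicate order, so the groups did not overlap. The single probe set still gave signal in every knockout-host tumour. Each of these tumours also holds implanted cells, for which no knockout is stated, and the source of the signal was not tested. With limma over all 22180 genes at an adjusted p under 0.05, 0.00902% of genes passed in the lower direction and 0% in the higher one. None of the 43 proteasome genes was among them (smallest adjusted p = 0.351).

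The 5 immunoproteasome genes gave different patterns over the tumours. Psmb8, Psmb10 and Psme1 read lower in every tumour of Stat2 KO hosts than in any tumour of WT hosts, Psmb9 was lower by the mean with overlapping groups, and Psme2 was higher by the mean, also with overlap. At an unadjusted p under 0.05, 3 of the 5 were lower and 0 higher, where 3.48% of all genes were lower and 5.34% higher. Groups that did not overlap were found for the same 3 genes in the lower direction, against 5.11% of all genes lower and 8.23% higher. The median difference of the 5, Stat2 KO host minus WT host, was -0.34, beside 0.021 over all genes. These genes were chosen with earlier results of the data known, so the counts describe them and do not test them as a group.

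Psmb8, the inducible chymotrypsin-like subunit, read 5.96, 6.13 and 6.09 in Stat2 KO hosts, against 6.84, 6.43 and 6.98 in WT hosts. All knockout-host tumours were low, and WT replicate 2 was the nearest to them. Its mean was 6.06 ± 0.092 in Stat2 KO hosts, against 6.75 ± 0.288 in WT hosts (SD, n = 3 each), a difference of -0.69 (SE 0.158, 95% interval -1.04 to -0.35, limma adjusted p = 0.351), or 38.0% lower.

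Psmb10, the inducible trypsin-like subunit, read 7.53, 7.42 and 7.34 in Stat2 KO hosts, against 7.93, 7.92 and 8.27 in WT hosts. The groups were apart, with WT replicate 3 the highest. Its difference was -0.61 (SE 0.144, 95% interval -0.92 to -0.30, limma adjusted p = 0.351), or 34.4% lower.

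Psmb9, the remaining inducible catalytic subunit, read 6.14, 6.10 and 6.16 in Stat2 KO hosts, against 6.44, 6.04 and 6.88 in WT hosts. The 3 knockout-host values were almost equal (SD 0.030), whereas the WT-host values spread widely (SD 0.421), and WT replicate 2 was the lowest of all 6 tumours. The difference of -0.32 (SE 0.186, limma adjusted p = 0.629) rested on WT replicate 3, without which it was -0.10, and it was -0.52 without WT replicate 2.

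Psme1, the alpha chain of the inducible cap, read 7.92, 7.85 and 7.83 in Stat2 KO hosts, against 8.07, 8.20 and 8.37 in WT hosts. Its groups did not overlap, and the difference was -0.34 (SE 0.134, 95% interval -0.64 to -0.052, limma adjusted p = 0.525). The Psme1 difference depended on the scaling. It was -0.22 after a further quantile normalization, -0.23 after cyclic loess and -0.41 after median centring. Psme2, the beta chain of the same cap, read 7.29, 7.62 and 7.50 in Stat2 KO hosts, against 7.02, 7.04 and 7.47 in WT hosts. WT replicate 3 lay among the knockout-host tumours, and the other WT tumours lay below all of them. The Psme2 difference was 0.29 (SE 0.159, 95% interval -0.051 to 0.64, limma adjusted p = 0.615), and without WT replicate 3 it was 0.44. A near copy of Psme2, Psme2b, is in the reference gene table, and the sources used here do not say whether the Psme2 probe set also reads it.

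**Figure D1:**
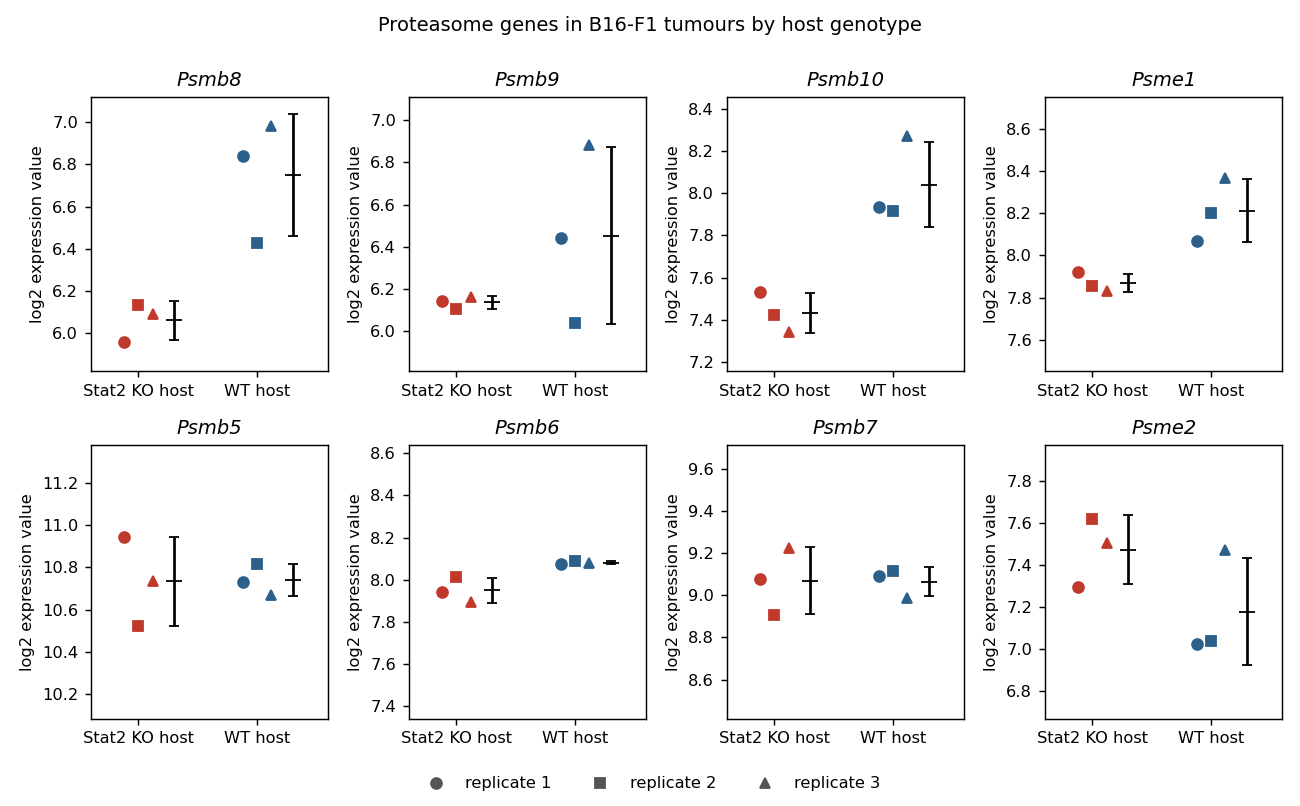
Log2 expression values (vertical axis, each panel spanning the same range) of the 5 immunoproteasome genes and of Psmb5, Psmb6 and Psmb7, for tumours of Stat2 KO hosts (red, left) and WT hosts (blue, right). Marker shapes give the replicate number, and black bars the mean ± SD of 3 tumours. Psmb8, Psmb10 and Psme1 are separated by host, and so, by a smaller shift, is Psmb6. Psmb9 and Psme2 overlap, and so do Psmb5 and Psmb7, whose means lie close together.

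The promoters of the 5 genes are shown because some of the genes are neighbours and yet gave unlike values, and that of Psmb5 because it is the constitutive counterpart of Psmb8. Psmb9, Tap1, Psmb8 and Tap2 follow each other in the MHC region of chromosome 17, and the windows of Psmb9 and of Tap1, a peptide transporter chain read from the opposite strand, share 275 bases. Psme1 and Psme2 lie near each other on chromosome 14 with Emc9 between them. Each window runs from 250 bases before to 50 after the gene's start, 5′ to 3′ on the gene's strand, from RefSeq on GRCm38.p6. The positions are chr17:34197945-34198244 (+) for Psmb8, chr17:34187281-34187580 (-) for Psmb9, chr8:105938343-105938642 (-) for Psmb10, chr14:55578244-55578543 (+) for Psme1, chr14:55591052-55591351 (-) for Psme2 and chr14:54617946-54618245 (-) for Psmb5. Capitals mark a match, on either strand, to 1 of 3 motifs. These are the gamma-activated site bound by STAT dimers (TTCNNNGAA), the core of the interferon-stimulated response element (GAAA, any pair of bases, GAAA) and the core of the antioxidant response element bound by NFE2L1 (TGACNNNGC).
Psmb8: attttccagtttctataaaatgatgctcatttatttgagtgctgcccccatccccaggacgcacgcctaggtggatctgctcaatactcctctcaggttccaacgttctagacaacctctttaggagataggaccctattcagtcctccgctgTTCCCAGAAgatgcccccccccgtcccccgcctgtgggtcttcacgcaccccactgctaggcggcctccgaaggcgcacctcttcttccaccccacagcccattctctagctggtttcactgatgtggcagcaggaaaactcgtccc
Psmb9: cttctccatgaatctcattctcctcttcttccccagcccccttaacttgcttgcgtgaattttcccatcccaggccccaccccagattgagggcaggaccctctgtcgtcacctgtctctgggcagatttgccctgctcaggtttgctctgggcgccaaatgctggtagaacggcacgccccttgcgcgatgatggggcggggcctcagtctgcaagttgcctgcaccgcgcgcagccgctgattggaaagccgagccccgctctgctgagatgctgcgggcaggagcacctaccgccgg
Psmb10: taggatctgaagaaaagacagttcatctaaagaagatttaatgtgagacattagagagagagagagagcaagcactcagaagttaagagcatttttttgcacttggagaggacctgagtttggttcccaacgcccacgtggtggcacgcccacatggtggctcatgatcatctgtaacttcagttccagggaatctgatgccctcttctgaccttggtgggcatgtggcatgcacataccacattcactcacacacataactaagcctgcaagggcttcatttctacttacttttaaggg
Psme1: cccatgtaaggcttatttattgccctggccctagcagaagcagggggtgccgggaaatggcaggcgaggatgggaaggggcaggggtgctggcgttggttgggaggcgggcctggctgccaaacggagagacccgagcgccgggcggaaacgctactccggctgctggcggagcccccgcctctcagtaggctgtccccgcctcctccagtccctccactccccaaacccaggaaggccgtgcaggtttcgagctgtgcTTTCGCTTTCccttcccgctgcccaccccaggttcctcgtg
Psme2: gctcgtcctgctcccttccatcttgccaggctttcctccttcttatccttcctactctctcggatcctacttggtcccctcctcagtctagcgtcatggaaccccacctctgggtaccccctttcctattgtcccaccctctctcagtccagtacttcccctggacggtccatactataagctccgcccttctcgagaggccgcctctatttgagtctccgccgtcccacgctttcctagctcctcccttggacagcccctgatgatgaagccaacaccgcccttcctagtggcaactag
Psmb5: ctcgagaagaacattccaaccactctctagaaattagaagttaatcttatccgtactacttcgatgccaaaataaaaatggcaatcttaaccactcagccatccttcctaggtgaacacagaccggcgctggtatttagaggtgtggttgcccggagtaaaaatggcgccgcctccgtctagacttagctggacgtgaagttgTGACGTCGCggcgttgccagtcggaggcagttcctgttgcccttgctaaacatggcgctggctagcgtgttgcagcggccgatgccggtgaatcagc

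The Psmb8 window held a gamma-activated site at -97 to -89 from the start, and the Psme1 window an interferon-stimulated element on the opposite strand, from base 10 to base 19 after the start. The windows of Psmb9, Psmb10 and Psme2 held none of the 3 motifs in these letters. Psmb5 held an antioxidant response element at -47 to -39. The promoter table held 36 of the 43 genes in 39 windows, 6 of them for the immunoproteasome genes since Psme2 has more than 1 start. A gamma-activated site was in 1 of these 6 windows, in 1 of the 33 windows of other proteasome genes and in 8.30% of all 32851 windows. The interferon-stimulated core was in 1 of 6, 3 of 33 and 3.44%, in the same order, and the antioxidant core in 0 of 6, 6 of 33 and 12.4%. Matches of different motifs did not overlap in these windows. A match describes the letters only and is not a measured binding site.

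The constitutive catalytic subunits were set beside the inducible ones that replace them. Psmb5, the constitutive chymotrypsin-like subunit, read 10.9, 10.5 and 10.7 in Stat2 KO hosts, against 10.7, 10.8 and 10.7 in WT hosts, with overlapping groups. Its difference was -0.0058 (95% interval -0.32 to 0.31, limma adjusted p = 0.991). Psmb7, the trypsin-like subunit, read 9.08, 8.91 and 9.22 in Stat2 KO hosts, against 9.09, 9.12 and 8.99 in WT hosts. These groups overlapped too, with a difference of 0.0036 (95% interval -0.29 to 0.30, limma adjusted p = 0.992). Psmb6, the caspase-like subunit, read 7.94, 8.01 and 7.89 in Stat2 KO hosts, against 8.07, 8.09 and 8.08 in WT hosts. Its groups did not overlap, but the shift was small, at -0.13 (95% interval -0.40 to 0.14, limma adjusted p = 0.757). Psmb5 and Psmb6 have pseudogenes that their probe sets could also read.

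The ratio of each inducible subunit to its counterpart was then compared within arrays, which shows an unequal change of the pair and no absolute level. Centred on the mean of the 6 tumours, the log2 ratio of Psmb8 over Psmb5 was -0.66, -0.058 and -0.31 in Stat2 KO hosts, against 0.44, -0.057 and 0.65 in WT hosts. Knockout-host replicate 2 and WT replicate 2 were almost equal, although the groups formally did not overlap. The ratio was lower by 37.8%, a difference of -0.68 (exact permutation p = 0.1, the smallest that 3 against 3 allows; adjusted over 3 pairs, 0.15). Psmb10 over Psmb7 was -0.21, -0.15 and -0.55 in Stat2 KO hosts, against 0.17, 0.13 and 0.62 in WT hosts. These groups were clearly apart, with a difference of -0.61 (exact permutation p = 0.1, adjusted 0.15), or 34.6% lower. Psmb9 over Psmb6 was -0.077, -0.19 and -0.013 in Stat2 KO hosts, against 0.086, -0.33 and 0.52 in WT hosts. The groups overlapped, the difference was -0.19 (exact permutation p = 0.6, adjusted 0.6), and without WT replicate 3 it was 0.028.

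**Figure D2:**
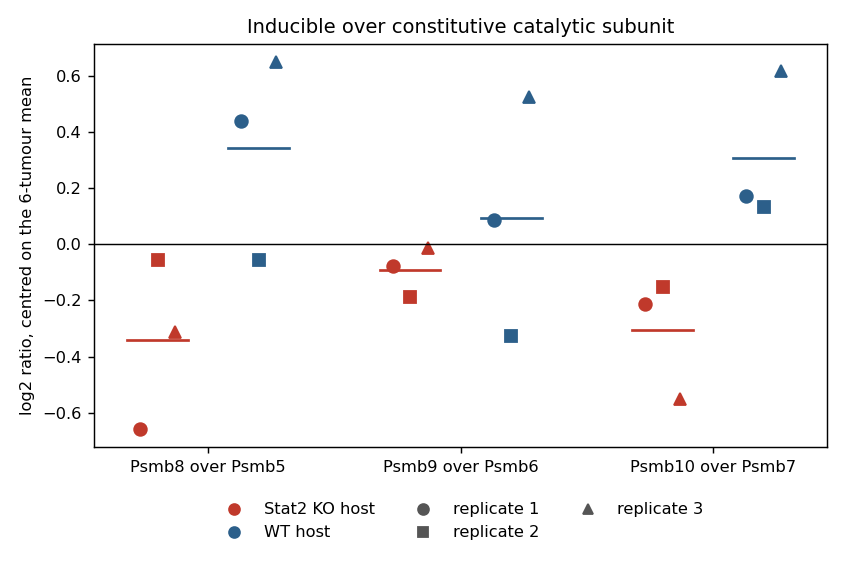
Log2 ratio of each inducible catalytic subunit over the constitutive subunit it replaces, centred on the mean of the 6 tumours (vertical axis), for tumours of Stat2 KO hosts (red, left) and WT hosts (blue, right). Marker shapes give the replicate number and horizontal lines the mean of 3 tumours. Psmb10 over Psmb7 is lower in all knockout-host tumours, Psmb8 over Psmb5 nearly touches at -0.058 and -0.057, and Psmb9 over Psmb6 overlaps.

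Among the 38 other genes, 32 were lower and 6 higher in Stat2 KO hosts, with a median difference of -0.12 and a range of -0.43 to 0.25. At an unadjusted p under 0.05, 3 were lower and 0 higher, beside the 3.48% and 5.34% of all genes. Groups did not overlap for 7 in the lower and 1 in the higher direction, beside 5.11% and 8.23%. Psmb11, a subunit of the thymus, and Psma8, a subunit of the testis, were among the 6 higher genes. Without these 2, 32 of 36 were lower, or 88.9%. The proteasome genes are bright, and bright genes were lower in general here. Of the 1853 genes at least as bright as the median of the 36, 74.3% were lower, with a median of -0.093, against 46.0% of all genes. The low direction of the other subunits also depended on the scaling and on 1 array. The number lower of 36 was 23 after a further quantile normalization, 22 after cyclic loess, 34 after median centring and 21 without Stat2 KO replicate 2. The corresponding medians were -0.029, -0.018, -0.19 and -0.041.

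In the regulatory particle, all 6 base ATPases were lower by the mean (median -0.14), and 13 of the 14 Psmd genes, some of which encode assembly factors (median -0.13). Of the 1853 bright genes above, 74.3% were lower. These genes are among the 36 whose low direction depended on the scaling and on Stat2 KO replicate 2. Psmd7, a scaffold partner of the deubiquitinase Psmd14, read 9.40, 9.03 and 9.30 in Stat2 KO hosts, against 9.79, 9.68 and 9.55 in WT hosts. Its groups did not overlap, and its difference of -0.43 (SE 0.145, limma adjusted p = 0.489) was the largest outside the immunoproteasome. Psmd10, the chaperone gankyrin that helps assemble the base, read 7.96, 7.51 and 7.91 in Stat2 KO hosts, against 8.29, 8.16 and 8.04 in WT hosts. These groups did not overlap either (-0.37, SE 0.153, limma adjusted p = 0.538), and without Stat2 KO replicate 2 the difference was -0.23. Psmd2, a large scaffold subunit of the base, differed by 0.0028 (SE 0.134), the only Psmd gene with a positive difference.

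Psmc1, a base ATPase, read 9.12, 8.77 and 9.15 in Stat2 KO hosts, against 9.52, 9.54 and 9.17 in WT hosts. The groups did not overlap, but WT replicate 3 nearly touched the knockout-host tumours, and the difference was -0.40 (SE 0.158, limma adjusted p = 0.525). Psmc2, another base ATPase, differed by -0.17 by its brighter probe set and by 0.071 by its second one, so its probe sets disagreed in direction.

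In the alpha ring, which gates entry to the barrel, 5 of 6 genes were lower by the mean (median -0.15) and 0 had groups apart. Of the 1853 bright genes above, 74.3% were lower. Groups were apart for 5.11% of all genes in the lower and 8.23% in the higher direction. Psma3 differed by -0.27 (SE 0.145) and Psma6 by -0.20 (SE 0.150). Psma5 differed by 0.15, but its means of 4.88 in Stat2 KO hosts, against 4.72 in WT hosts lay below 5.21, the median of the 1105 genes of olfactory receptors. Its second probe set read as low, so the Psma5 probe sets were not shown to read the transcript of a subunit that every proteasome needs. In the beta ring outside the inducible genes and Psmb11, 5 of 7 were lower by the mean (median -0.025), beside the same 74.3%. Psmb3, a structural subunit, read 6.69, 6.62 and 6.72 in Stat2 KO hosts, against 6.42, 6.57 and 6.53 in WT hosts. It was the 1 proteasome gene whose groups did not overlap in the higher direction (0.17, SE 0.126, limma adjusted p = 0.695). Psmb2, another structural subunit, differed by -0.18 (SE 0.144).

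The activators that interferon does not define differed little. Psme3, a nuclear cap, differed by -0.12 (SE 0.152), Psme4, a cap linked to acetylated histone breakdown, by -0.059 (SE 0.158), and Psmf1, an inhibitor of the core particle, by -0.12 (SE 0.172), each with overlapping groups. Psmb11 read 5.88, 6.14 and 6.03 in Stat2 KO hosts, against 5.84, 5.89 and 5.56 in WT hosts, with a difference of 0.25 (SE 0.144, limma adjusted p = 0.625). Psma8 differed by 0.065 (SE 0.177), with both means below the olfactory receptor median.

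**Figure D3:**
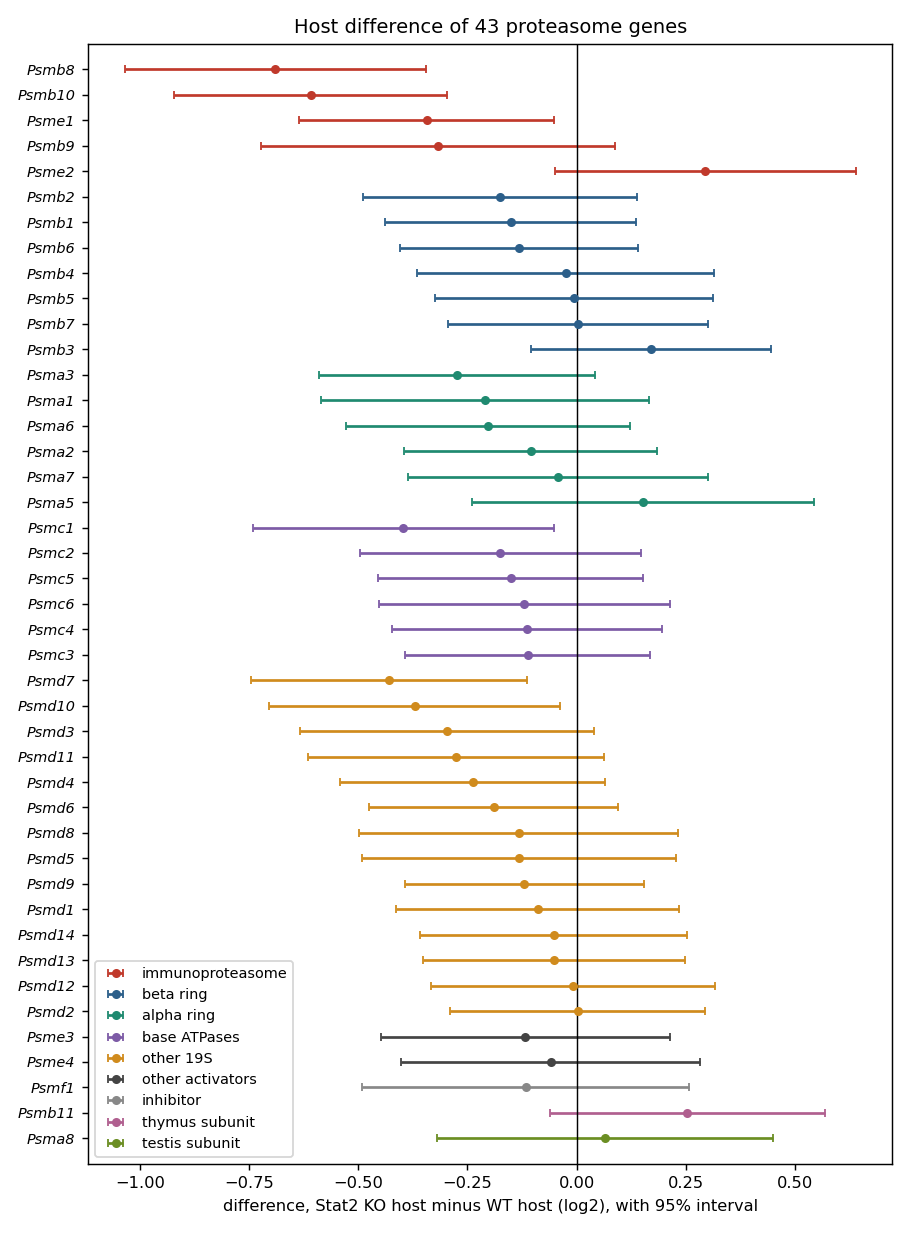
Difference of each of the 43 proteasome genes, as Stat2 KO host minus WT host in log2 units (horizontal axis), with the 95% interval of the limma fit, 3 tumours per host, ordered by the role of the gene. Psmb8 and Psmb10 lie farthest to the left, at -0.69 and -0.61, and Psme2 and Psmb11 farthest to the right, at 0.29 and 0.25.

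The contrast of the inducible genes with the rest was small once all 5 were averaged. The mean deviation of the 5 from their own 6-tumour means was -0.19, -0.13 and -0.17 in Stat2 KO hosts, against 0.10, -0.036 and 0.43 in WT hosts. For the 36 other genes it was 0.053, -0.24 and -0.015 in Stat2 KO hosts, against 0.093, 0.10 and 0.0034 in WT hosts. The mean of the inducible genes did not overlap between hosts, was low in all knockout-host tumours and was highest in WT replicate 3. However, Psme2 was higher by the mean in Stat2 KO hosts, and Psmb9 was lowest in WT replicate 2. The mean of the other genes was low mainly in Stat2 KO replicate 2. Inducible minus other was -0.24, 0.10 and -0.16 in Stat2 KO hosts, against 0.0077, -0.14 and 0.43 in WT hosts, which overlap. Its host difference was -0.20, and without WT replicate 3 it was -0.036. Leaving out Stat2 KO replicate 1 or 2 gave -0.13 or -0.30, and leaving out WT replicate 2 gave -0.32. So the mean of the 5 genes was not set apart from the other subunits by host, while the differences of Psmb8 and Psmb10 were -0.49 or lower whichever tumour was left out. The differences of single genes do not subtract the other subunits. The ratio of Psmb8 over Psmb5 came as near 0 as -0.53 with 1 tumour left out, and its groups nearly touched. Psmb10 over Psmb7 came as near 0 as -0.46.

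Stat2 KO replicate 2 had the highest array median, 6.44. In it the melanocyte markers deviated by -0.32 and the fibroblast markers by -0.55, beside the -0.24 of the other proteasome genes. The part of these in the result was not tested.

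Genes that work with the proteasome were taken from a list of assembly factors, ubiquitin receptors and regulators, 18 of whose 24 symbols were measured. Of them 16 were lower and 2 higher by the mean, with a median of -0.18, and 0 passed in either direction at an adjusted or an unadjusted p under 0.05. This list was bright too, with a median level of 8.32. Of all genes 46.0% were lower, and of the 1853 bright genes above 74.3%. The ubiquitin shuttle Ubqln2 differed by -0.29, the assembly chaperone Psmg2 by -0.26, the maturation factor Pomp by -0.22 and Nfe2l1, the factor that raises proteasome genes when activity is short, by -0.18. Groups did not overlap for 3 of the 18, each lower, beside 5.11% of all genes lower and 8.23% higher. The list's mean deviation was 0.078, -0.18 and -0.10 in Stat2 KO hosts, against 0.091, 0.047 and 0.061 in WT hosts, so Stat2 KO replicate 1 lay among the WT tumours.

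Genes of peptide trimming, transport and loading, class I chains and their regulators were all lower by the mean. These were 12 of 12 measured members of a list of 14, with a median of -0.33, beside 46.0% of all genes lower. Calr, Pdia3 and Canx differed little, by -0.082, -0.029 and -0.0066. At an unadjusted p under 0.05, 6 of the 12 were lower and 0 higher, beside 3.48% and 5.34% of all genes, and 0 passed at an adjusted p. The peptide trimmer Erap1 read 6.71, 6.39 and 6.63 in Stat2 KO hosts, against 7.27, 6.92 and 7.38 in WT hosts, with groups apart and a difference of -0.62 (SE 0.156). Nlrc5, the class I transactivator, the light chain B2m and the heavy chain H2-K1 differed by -0.74, -0.78 and -0.73. Tap1, Irf1, Calr, Pdia3 and Canx were named after their values were seen, and no relation of Tap1 or Irf1 to Psmb9 was tested. Tap1, whose promoter window overlaps that of Psmb9, read 6.93, 7.33 and 7.07 in Stat2 KO hosts, against 7.50, 7.53 and 7.68 in WT hosts, with groups apart. Irf1, an interferon-induced transcription factor, read 6.56, 6.73 and 6.70 in Stat2 KO hosts, against 6.82, 6.64 and 7.23 in WT hosts. The mean deviation of the class I list was -0.15, -0.22 and -0.20 in Stat2 KO hosts, against 0.17, 0.18 and 0.23 in WT hosts, with the 3 WT tumours close together.

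General leukocyte and macrophage markers were mostly lower by the mean, and so were fibroblast markers and the class I list. Most markers of other immune cells were higher by the mean, as were 11988 of all 22180 genes. In bulk tumours fewer cells of a type and less RNA per cell cannot be told apart. Of 10 general leukocyte markers 9 were lower by the mean (median -0.35), 5 of them at an unadjusted p under 0.05, beside 3.48% of all genes. The mean level of the list was 6.46 to 6.63 in Stat2 KO hosts, against 6.88 to 6.92 in WT hosts. Fcer1g and Lcp1, an immune receptor chain and an actin bundler, differed by -0.62 and -0.66, and Cd53 and Laptm5, both membrane proteins of blood cells, by -0.41 each. Of 12 macrophage markers 10 were lower (median -0.30), 5 of them at an unadjusted p under 0.05, beside the same 3.48%, and the mean level was 6.12 to 6.39 in Stat2 KO hosts, against 6.47 to 6.70 in WT hosts. C1qb, Ms4a7, Cd68 and C1qc, those with the smallest p, differed by -0.95, -0.83, -0.61 and -0.49. The 2 higher markers, Cd163 and Cd14, differed by 0.17 and 0.057. Mrc1, Fcgr1 and Adgre1 differed by -0.038, -0.10 and -0.21, with overlapping groups, so the drop was not uniform over the list. Cd163, Cd14, Mrc1, Fcgr1 and Adgre1 were named after their values were seen. Across both lists 0 markers had both means below the olfactory receptor median of 5.21. The 2 lists were not highest in WT replicate 3, where Psmb8, Psmb9, Psmb10 and Psme1 were highest, and their part in the immunoproteasome values was not tested.

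Other cell types did not share that direction throughout. T cell, NK cell, B cell, dendritic cell and neutrophil markers were higher by the mean in 7 of 8, 6 of 8, 4 of 5, 7 of 8 and 6 of 7 members, with medians of 0.076, 0.19, 0.10, 0.093 and 0.13 and 0 members at an unadjusted p under 0.05, beside 5.34% of all genes higher. Of all 22180 genes, 11988 were higher by the mean. These 5 lists were dim, with median levels of 5.74 to 6.06, against 6.33 over all genes. The macrophage list, mostly lower, was dim too, with a median level of 6.18. The part of the level in the direction of any list was not tested. Both means lay below the olfactory receptor median for 1 T cell, 1 NK cell and 2 neutrophil markers, and for 0 of the B cell and dendritic cell markers. Fibroblast markers were lower in 7 of 8 (median -0.40), 3 of them at an unadjusted p under 0.05, and endothelial markers in 4 of 7 (median -0.028), 1 of them, beside 3.48% of all genes lower. Melanocyte markers, which check the labelled tumour type, were bright, with mean levels of 11.2 to 11.6 in Stat2 KO hosts, against 11.4 to 11.7 in WT hosts. They were lower in 7 of 8 (median -0.093), with 0 at an unadjusted p under 0.05. Of the 1853 bright genes above, 74.3% were lower.

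**Figure D4:**
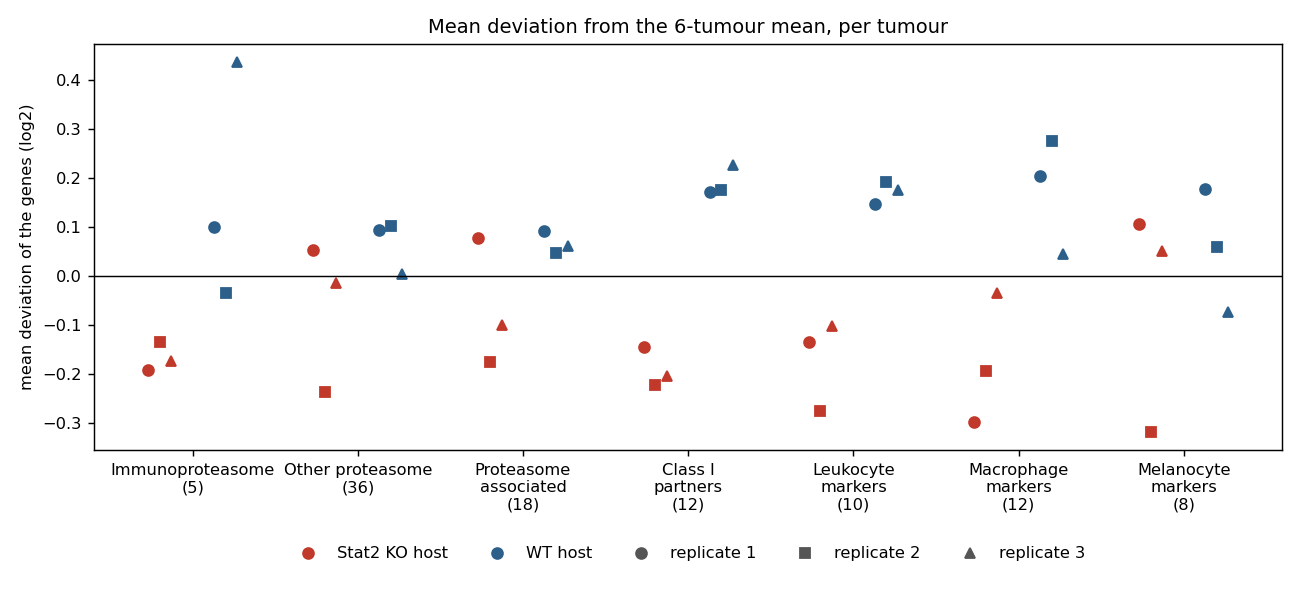
Mean deviation of each group of genes from its 6-tumour mean (vertical axis, log2), for tumours of Stat2 KO hosts (red, left) and WT hosts (blue, right), with marker shapes for the replicate number and the number of genes in brackets. The immunoproteasome genes reach 0.43 in WT replicate 3, and the other proteasome genes stand at -0.24 in Stat2 KO replicate 2. The immunoproteasome genes and the class I, leukocyte and macrophage lists separate the hosts, and the remaining groups overlap.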

How the data were processed

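The deposited table gives 1 log2 value for each probe set and array. Per the submitters' processing notes, the authors used Affymetrix Expression Console 1.3.1 and RMA. The build behind the array was not given in the sources. The platform annotation gave 1 gene for 23521 of 41345 probe sets, several for 1814 and none for 16010. Each gene was read by its brightest single-gene probe set, with no filter on dim ones. Differences were fitted with limma 3.58.1 in R 4.3.3 (lmFit, eBayes with intensity trend) over 22180 genes on all 6 arrays, two-sided, with Benjamini-Hochberg adjustment and a threshold of 0.05. Ratios of subunit pairs were compared by exact two-sided permutation. The fit was checked on simulated data. No probe-level file or detection call entered, so signal over background and scan batch were not examined, and the number of arrays limits the precision.

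The members and gene lists were chosen with earlier results of these data known. Genes named are the 5 inducible genes, their 3 counterparts, Psme3, Psme4, Psmf1, Psmb11, Psma8, in each of Psma, Psmb, Psmc and Psmd the 2 genes with the smallest p and the largest difference in each direction, up to 4 genes per list, and Stat2. Lists cover proteasome-associated genes, class I partners, and markers of leukocytes, macrophages, dendritic, T, NK and B cells, neutrophils, fibroblasts, endothelial cells and melanocytes. Alternatives were the replicate block, further quantile, median and cyclic loess normalization, a filter keeping genes above the median level, averaging a gene's probe sets, eBayes without trend or robust, array weights, and each tumour left out.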

Additional observations from a re-analysis of the deposited data

How the results depend on the processing

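With array weights 1 immunoproteasome gene passed, Psmb10 (adjusted p = 0.041, range 0.041 to 0.858 over its alternatives), in a setting where 257 of all genes passed (1.16%), against 2 with equal weights. In each other setting run, 0 of the 43 did. The number of inducible genes lower at an unadjusted p under 0.05 was 2 after the further quantile normalization, after cyclic loess and when replicate 3 of either host was left out, and 3 otherwise. For the other genes the count was 6 with array weights and 1 to 5 when single tumours were left out (1 without Stat2 KO replicate 2, WT replicate 1 or WT replicate 2). Over all genes 2324 were lower at that level with array weights (10.5%), against 771 with equal weights, and 375 to 1432 when single tumours were left out. The median of the inducible genes ranged from -0.52 to -0.27 with single tumours left out, and Psmb9 over Psmb6 from -0.40 to 0.028. That ratio was 0.030 with array weights. Of the genes near 0, Psmb5 turned to 0.059 after quantile normalization and 0.068 after cyclic loess, Psme4 to 0.034 and 0.055, and Psma8 to -0.045 and -0.051. Median centring gave -0.063 for Psmb7, -0.063 for Psmd2 and -0.00098 for Psma8, and array weights 0.053 for Psme4 and -0.045 for Psmd2.
With single tumours left out the differences ran from -0.013 to 0.29 for Psma5, -0.042 to 0.21 for Psma8, -0.11 to 0.10 for Psmb5, -0.074 to 0.085 for Psmb7, -0.082 to 0.058 for Psmd2, -0.21 to 0.018 for Psme3 and -0.15 to 0.077 for Psme4. The cause was not tested.

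Replicate numbers are shared by the hosts, but the labels do not tie them to a litter or day. Deviations of same-numbered tumours correlated at 0.24, 0.079 and 0.030, the first being the highest between any 2 tumours of different hosts. Stat2 KO replicate 2 correlated best with WT replicate 3. These values and the labels cannot settle a pairing, and the numbers were not taken as pairs. With the replicate block 0 proteasome genes passed, and 3 inducible and 3 other genes were lower at an unadjusted p under 0.05, as without it. Over all genes 3 passed with the block and 2 without. At an unadjusted p under 0.05, 1055 genes were lower and 1429 higher with the block, against 771 and 1185 without. The limma adjusted p was 0.196 for Psmb8 and 0.212 for Psmb10 with the block, against 0.351 for each without. Pair ratios and medians do not depend on the block, the trend or the filter on dim genes beyond the genes it removes: 4 of 43, Psmb9 among them. The number of arrays per host limits the precision of each of these values.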
